A study of Mus musculus with 2 samples.

Results

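Sox9 encodes a transcription factor with an HMG-box DNA-binding domain that directs the formation of cartilage cells and of Sertoli cells in the testis. It lies in a gene desert, a long stretch with few protein-coding genes, and elements scattered far upstream and downstream of it are known to act as its enhancers in cartilage, testis and other tissues. c-Fos dimerizes with members of the Jun family, and the resulting factor, AP-1, commonly binds enhancers far from gene starts as well as promoters. The c-Fos peaks within 1 Mb of the Sox9 start were examined here, that is, those on mouse chromosome 11 with a centre between positions 111643522 and 113643522 of the mm9 build. The start itself was placed at about 112643522. Of 10870 peaks in the list, 748 lay on chromosome 11 and 15 lay in this window. The rule uses position and neither score nor width, although the region was chosen for study with earlier results of these data known.

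The peaks came from chromatin immunoprecipitation followed by sequencing (ChIP-seq) with an anti-cFos antibody, in 1 library. A second library, the input, held DNA taken without an antibody. Both came from mouse bone marrow-derived mesenchymal stem cells (mBMSCs), stromal cells able to form bone, cartilage and fat, which carried a p53 knockout, expressed cFos and had been passaged fewer than 20 times. p53 is a tumour suppressor, and the series title links cFos and Sox9 to chondroblastic osteosarcoma, a bone tumour with cartilage-like matrix. The labels do not say how cFos was delivered, how many clones were used or whether cells without cFos were studied, and a peak list holds no expression with which to check the cell type. Only the list of c-Fos peaks was used, so the sequencing depth is unknown. With no replicate there is no error between cultures, and no test was made. Intervals below cover counting error within this list, or give order statistics of its values.

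A c-Fos peak lay on the Sox9 start. It ran over chr11:112643372-112643871 (mm9), so that the start fell 150 bp from its left edge and 349 bp from its right edge, and its centre was 99 bp downstream. Peaks covered 0.440% of the autosomes (as measured from the first peak centre to the last), so few positions lie inside a peak. That share is over all positions, and the share of other gene starts inside a peak was not counted. The authors' score, a value they deposited for each peak without stating its scale, was 83.3 for this peak. It ranked 6711 of 10870, with 38.2% of all peaks scoring lower. The peak was thus of lower than median score within the list, whose median was 101 and whose lowest score was 50.01. As its scale is not stated, the score was used only to compare peaks within the list and was not read as a peak height. Peaks were compared by order, by cut-offs and by closeness in score.

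The peak on the Sox9 start was among the narrowest in the list. It was 500 bp wide, against a median of 949 bp for all peaks (95% interval 946 to 952 bp). Only 5 other peaks of the 10870 were as narrow, with widths from 393 to 499 bp and scores from 52.94 to 68.2, all lower than that of the Sox9 start. Of 1653 peaks with a score within 10 of it, it was the narrowest, and the middle of that set ran from 862 to 970 bp. The next narrowest peak on chromosome 11 measured 622 bp, and the next narrowest near Sox9 measured 764 bp. Whether the local sequence or its mappability bears on this width was not tested.

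**Figure D1:**
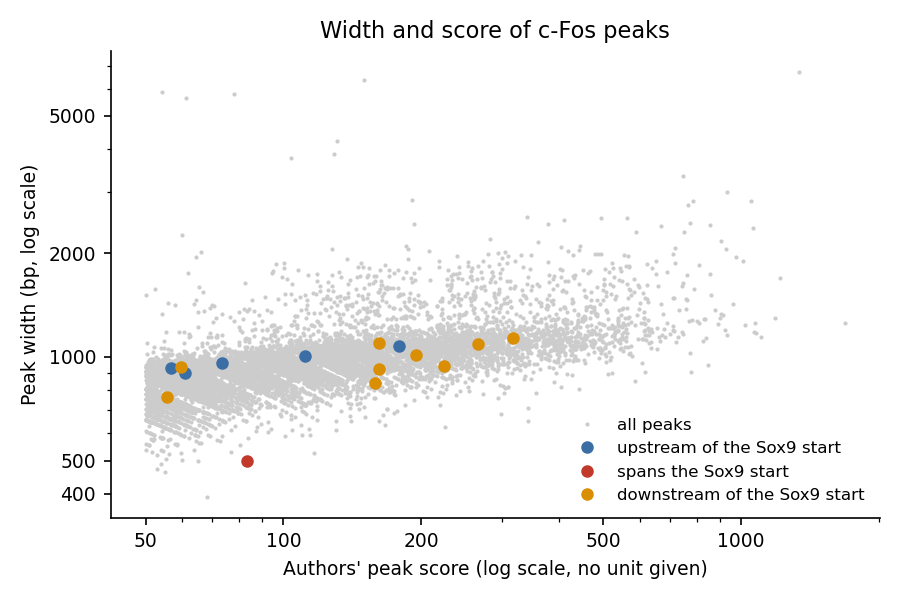
Width in bp against the authors' score for all 10870 c-Fos peaks (grey points), both on log scales, with the 15 peaks near Sox9 coloured by side of the start. The peak on the Sox9 start, at 500 bp and a score of 83.3, sits below the band of peaks of like score, while the other 14 lie within it.

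The peak on the start stood alone. No other peak centre lay within 100 kb of the Sox9 start on either side. Its nearest neighbour was 115 kb away, downstream, and the nearest upstream was 161 kb away. Of the 10785 autosomal peaks, 15.7% were farther from their nearest neighbour than this. Around other autosomal peaks, the median number of peaks within 100 kb was 3, the central peak included. RefSeq, on build GRCm38.p6, lists BC006965 and Gm11681, both long noncoding RNA genes, as the nearest genes to either side of Sox9. Among protein-coding genes it lists the gene model Gm11677 and then Kcnj2, an inward-rectifier potassium channel, upstream, and Slc39a11, a zinc transporter, downstream. That table is on another build, so none of the peaks was placed relative to these genes.

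Upstream of Sox9 there were 5 peaks (95% Poisson interval 1.62 to 11.7), against a median of 3 in 1 Mb sides of other autosomal windows. The nearest, chr11:112482583-112483541, was 160 kb from the start and scored 73.3. Next came a close pair, chr11:112334408-112335338 at 309 kb with a score of 56.68 and chr11:112331490-112332497 at 312 kb with a score of 111. Their centres were 2.88 kb apart, closer than all but 4.65% of neighbouring autosomal peaks. Beyond the pair, single peaks followed at 608 kb (chr11:112034689-112035761, score 179) and at 821 kb (chr11:111822525-111823423, score 60.93). Of the 5 upstream peaks, 2 thus scored above the list's median and 3 below it. Their widths ran from 899 to 1073 bp, around the median of the whole list.

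Downstream, 9 peaks lay beyond the one on the start, and 7 of them fell between 116 and 487 kb from it. The nearest was chr11:112758624-112759545, 116 kb from the start, with a score of 162. The peak of highest score in the whole window followed at 219 kb, chr11:112862039-112863170. Its score of 318 ranked 788 in the list, with 92.7% of peaks scoring lower, and at 1132 bp it was also the widest near Sox9. A peak at 245 kb, chr11:112888207-112889043, was one of the narrower ones at 837 bp and scored 158. A close pair stood at 279 kb (chr11:112922085-112923094, score 195) and 281 kb (chr11:112924124-112925219, score 162), with centres 2.08 kb apart. Both members of this downstream pair scored above the list's median, whereas the upstream pair had 1 member above it and 1 below.

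Farther downstream, scores alternated between high and low. At 321 kb a peak of low score, 59.7, lay at chr11:112964280-112965212. The second highest score of the window, 267, belonged to chr11:113129925-113131012 at 487 kb and ranked 1166 in the list. At 570 kb, chr11:113213266-113214029 scored 55.73, the lowest value near Sox9. After it came the longest stretch without a peak in the window, 381 kb, which ended at a peak at 952 kb, chr11:113594577-113595518, with a score of 224. This last peak was the third highest in score.

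**Figure D2:**
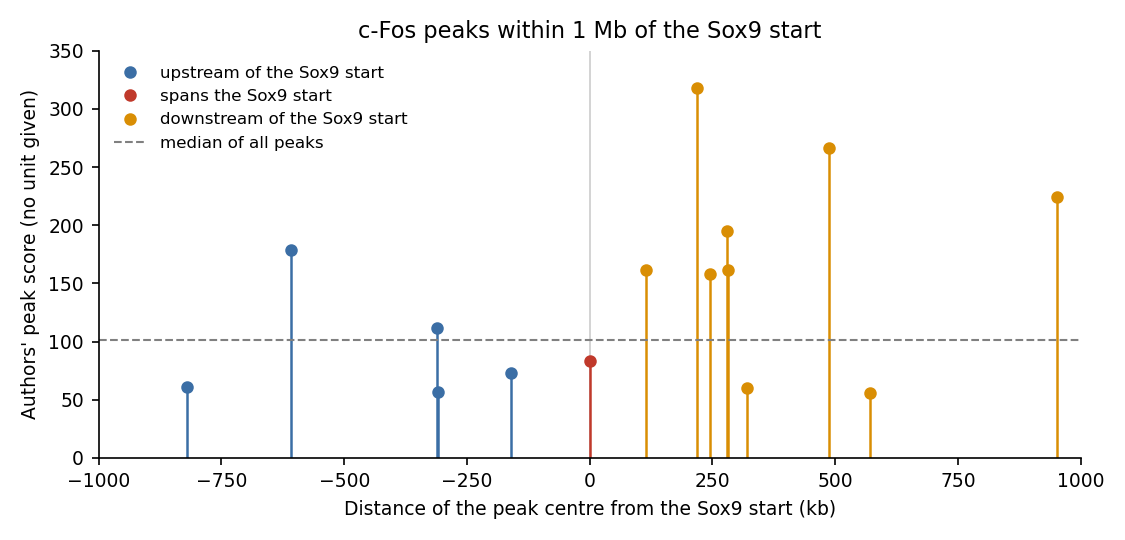
Authors' score of each of the 15 c-Fos peaks against the distance of its centre from the Sox9 start in kb, upstream negative, with the median score of all peaks (101) as a dashed line. The 3 peaks scoring at least 200 all lie downstream, at 219, 487 and 952 kb, and the peak on the start scores 83.3.

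The edges of the window fell differently on each side. Upstream, the first peak left out was at 1019 kb, only 18.8 kb past the limit, with a score of 106. Downstream, the first peak left out was at 1912 kb, which left 961 kb without a peak after the last member. A somewhat wider window would thus have gained a peak upstream first.

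The upstream and downstream scores overlapped. The upstream median was 73.3, with values from 56.68 to 179, and the downstream median, without the peak on the start, was 162, with values from 55.73 to 318. A score of at least 100 was reached by 2 of 5 upstream peaks and 7 of 9 downstream peaks, against 50.7% of all peaks. A score of at least 200 was reached by 0 of 5 upstream (Wilson upper bound 43.4%) and 3 of 9 downstream, against 18.6% of all peaks. The 95% Wilson intervals of the shares reaching 100, 11.8% to 76.9% upstream and 45.3% to 93.7% downstream, overlapped each other, and both took in the share of the whole list. Peaks of the same library are not replicates, so the difference between the sides was not tested.

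Over the whole window, 9 of the 15 peaks scored at least 100 (Wilson interval of the share 35.7% to 80.2%) and 3 scored at least 200 (7.05% to 45.2%). Both intervals took in the shares of all peaks, 50.7% and 18.6%. The median score of the 15 was 158 (95% interval 60.93 to 195), against 104 for the other peaks of chromosome 11 (98.5 to 109) and 101 for the whole list. The interval of the 15 takes in both of the other medians. Among 763 other 2 Mb windows with at least 5 peaks, 4.98% had a higher median score. The highest score near Sox9 ranked lower among windows, since 473 of the 1183 other windows held a higher score.

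The Sox9 window held more peaks than the typical stretch of the autosomes, and as many as the typical surroundings of a peak. Its count of 15 (95% Poisson interval 8.40 to 24.7) was set beside 1183 other windows of 2 Mb laid end to end from the first to the last peak of each autosome. Those had a median of 7 peaks, a mean of 8.96 and quartiles of 2 and 14. At least 15 peaks were found in 21.7% of them, and fewer in 78.3%. The mean of the other windows lay inside the counting interval of the Sox9 window. On chromosome 11 alone, which is rich in peaks, the median of 57 other windows was 13, and 40.4% held at least 15.

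Because a peak lay on the Sox9 start, windows centred on each of 10765 other autosomal peaks were counted as well, a comparison added after the data were seen. Their median was 15 peaks, equal to the count near Sox9, with quartiles of 10 and 21, and 53.3% of them held at least 15. The rank of the Sox9 window thus moved from above the upper quartile to the middle when the other windows were also centred on a peak. These windows overlap one another and some reach past the last peak of a chromosome.

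**Figure D3:**
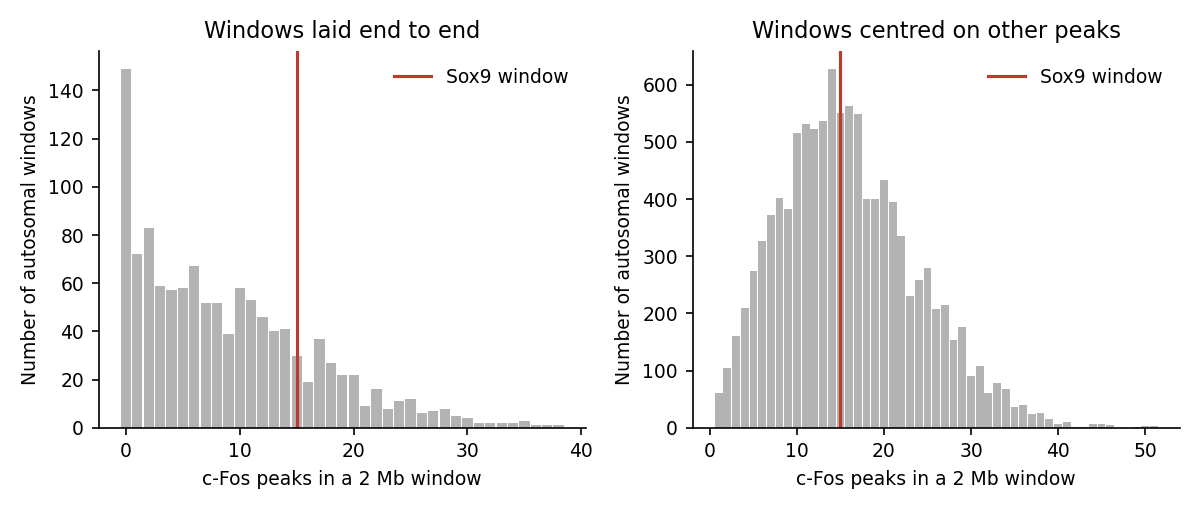
Number of autosomal 2 Mb windows (vertical axis) by the number of c-Fos peaks they hold (horizontal axis), for 1183 windows laid end to end (left) and 10765 windows centred on other peaks (right), with the 15 peaks of the Sox9 window as a red line. The line lies in the right-hand part of the left distribution, whose median is 7, and at the median of 15 of the right one.

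How the 15 peaks compared with other places depended on the distance from the start. Within 100 kb there was only the peak on the start. Within 200 kb there were 3 peaks, against a median of 5 around other autosomal peaks, of which 19.6% had fewer. By 300 kb the count had reached 7, against a median of 6, and by 400 kb it was 10, against a median of 7, with fewer around 65.5% of other peaks. At 500 kb there were 11, against a median of 9. Compared with other peaks, the Sox9 start thus had few further c-Fos peaks within 200 kb, and its count was above their median at 300, 400 and 500 kb, with most of the peaks downstream. At 1000 kb it was level with that median. Set beside the midpoints of the 1183 windows laid end to end, of which 7.52% had a peak centre within 10 kb, the count was above the median at each of these distances. Those medians were 0 at 100 kb, 1 at 200 kb, 2 at 300 kb, 2 at 400 kb and 3 at 500 kb. At 400 kb 8.71% of the midpoints had at least 10 peaks. At 100 kb, where the Sox9 count was the peak on the start alone, 39.4% of the midpoints had at least 1. The midpoints were not chosen to lie on a peak, whereas each Sox9 count includes the peak on the start.

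The sides differed in number, but not more than the sides of other windows commonly did. Counting by centre, 10 peaks lay downstream, the one on the start included, and 5 upstream. Among the 1 Mb sides of the other windows, 15.4% held at least 10 peaks and 66.1% held at most 5. Among 167 other windows with 13 to 17 peaks in all, the median difference between the sides was also 5, and 56.3% differed by at least that many. In the 500 kb just downstream, the 7 peaks beyond the start were at least matched by 9.22% of 4763 other windows of 500 kb, and the 3 in the 500 kb upstream by 34.3%. The 7 were singled out after their positions were seen.

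Peaks around Sox9 were spaced widely and without large holes. The median distance between neighbouring centres in the window was 109 kb over 14 pairs, against 64.5 kb over 10766 neighbouring pairs on the autosomes. In the 167 windows with 13 to 17 peaks, a group formed after the data were seen, the median of that distance was 57.3 kb, and 5.99% of them had a wider spacing than the Sox9 window. At the same time the longest stretch without a peak, 381 kb, was shorter than in most of those windows. The median over those 167 windows was 571 kb, and 87.4% had a longer stretch. In most windows of like count, then, peaks were gathered more closely and left larger empty stretches than in the Sox9 window. However, the Sox9 window has a peak at its middle, which divides it, and those windows were not centred on a peak. The stretches are therefore not compared like for like, and they were not measured in windows centred on other peaks. The window's limit cut off most of the 961 kb without a peak that followed its last member. Limits of the other windows cut stretches in the same way.

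**Figure D4:**
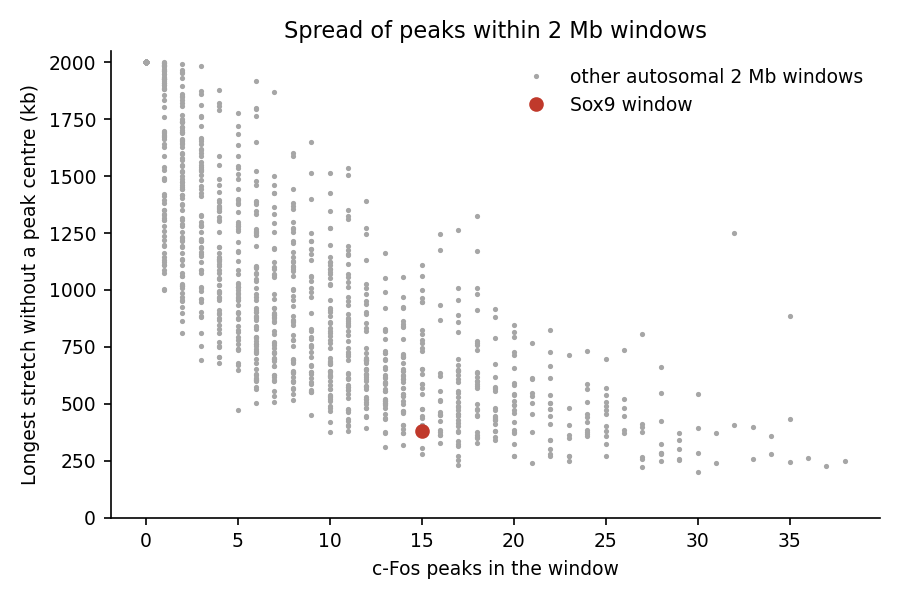
Longest stretch without a peak centre in kb (vertical axis) against the number of c-Fos peaks (horizontal axis) for 1183 other autosomal 2 Mb windows (grey) and the Sox9 window (red). The Sox9 window, at 15 peaks and 381 kb, lies near the lower edge of the windows of like count, which were not centred on a peak as it is.

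Close pairs were not more common near Sox9 than elsewhere. Of the 15 peaks, 4 had another peak centre within 10 kb, against 27.5% of all autosomal peaks, and these were the 2 pairs described above. Of the 14 neighbouring pairs, 14.3% lay within 10 kb, against 15.3% on the autosomes. No 100 kb stretch held more than 4 of the peaks, which was also the median over the 167 windows of like count. In score, those windows had a median of 101 for their own median score, and 2.99% exceeded the 158 of the Sox9 window. In the highest score they reached a median of 370, above the 318 near Sox9, and 62.3% of them exceeded it. The share of peaks scoring at least 100 had a median of 50% in those windows, against 60% near Sox9, and 24.6% of them had a higher share. The median score of the Sox9 window was thus high for its count, while its top score and this share were less so. That median rests on 15 peaks, and its interval, 60.93 to 195, takes in 101.

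Along chromosome 11 the Sox9 window sat between sparser neighbours. With 2 Mb windows laid outward from it, the next one upstream held 7 peaks and the next one downstream held 10. The windows after those held 16 upstream and 31 downstream. The counting interval of the Sox9 window takes in the counts of 10 and 16, but not those of 7 and 31. Those counts have counting error of their own, which was left out here, as was the spread between windows. Over the 57 other windows of chromosome 11 laid end to end, the quartiles were 5 and 18 peaks. Whether the Sox9 window differs from its neighbours was therefore not tested.

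**Figure D5:**
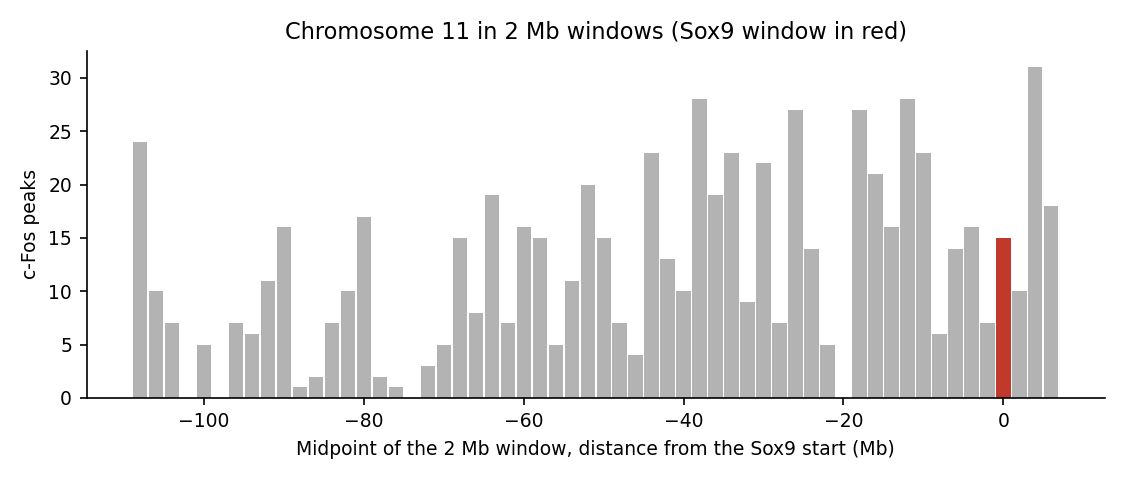
Number of c-Fos peaks in 2 Mb windows of chromosome 11, laid outward from the Sox9 window (red, 15 peaks), against the distance of the window's midpoint from the Sox9 start in Mb. The windows beside it hold 7 and 10 peaks, and the next but one downstream holds 31.

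A score of at least 100 removed the peak on the Sox9 start. It left 9 peaks in the window, 2 upstream and 7 downstream, and the nearest to the start was then the one 116 kb downstream. The same choice keeps 50.7% of all peaks, so it leaves out a large part of the list everywhere. No second library was at hand to measure the peak on the start again.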

How the data were processed

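ChIP-seq was made with an anti-cFos antibody in p53 knockout mBMSCs expressing cFos, with 1 ChIP library and 1 input library, grouped by the antibody in the labels. The peak list of the ChIP library was analysed, and the input was not analysed here. It gives a position and a score deposited by the authors for each peak, with no scale stated. Per the submitters' processing notes, CASAVA 1.8.2, MACS 1.4.1 and mm9 were used, with no role given. No role of the input in peak calling, aligner, read filter or peak threshold is given by the sources used here. Read counts and depth are therefore unknown.

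Starts were made 1-based by adding 1 to the file's value. Peaks were taken by centre. Sox9 was placed at the mm9 start given with the selection rule, which could not be checked against an mm9 annotation, and builds were not converted. The promoter table used here has 0 entries for Sox9, so no sequence is shown. Other windows ran from the first to the last peak of each autosome, whole windows only, without those overlapping the Sox9 window. Gaps in the assembly were not left out. Intervals were exact Poisson, Wilson or order-statistic, at 95%. Window counting was tested on simulated positions. The members, the named items (all 15 peaks) and the comparisons were chosen with earlier results of these data known. Python 3.11.15, numpy 2.4.6, pandas 2.3.3, scipy 1.17.1 and matplotlib 3.10.9 were used. The alternatives tried kept peaks scoring 100 or more, dropped the widest 5%, joined peaks within 2 kb, assigned peaks by overlap, or used other sets of windows.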

Additional observations from a re-analysis of the deposited data

How the results depend on the processing

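Of 31 recomputed values, 21 stayed and 10 moved. A count stayed if it was within 1.5 times the main count, whatever its interval. Other values stayed if they were within the main value's interval or equal. Part of the 21 could not change. No peak near Sox9 was among the widest 5%, so dropping those left the window's own counts, distances, scores and widths as they were. Assigning peaks by overlap also gave the main values again. The tally is therefore not a measure of how stable the results are. A score of at least 100 left 9 peaks in the Sox9 window, 2 of them upstream, moved the nearest peak to 116 kb from the start and lengthened the longest stretch to 465 kb. Under that score, 82.6% of other 2 Mb windows held fewer peaks than the Sox9 window, against 78.3% over all peaks. That share was 72.9% with peaks within 2 kb joined, 87.8% in windows of 1 Mb, 59.6% on chromosome 11 alone, 75.1% among windows with at least 1 peak and 46.7% for windows centred on other peaks. Joining left 13 peaks. The list ends at a score of 50.01, so sites of lower score cannot be counted, and the depth is unknown. No paired analysis was possible because there is only 1 ChIP library.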
